A study of Mus musculus with 4 samples.

Results

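The genes described here encode 8 enzymes of cholesterol synthesis, Hmgcs1, Fdps, Fdft1, Sqle, Lss, Cyp51, Msmo1 and Dhcr7, out of the 31053 genes in the count tables. They were chosen by name, and each was matched to its row through its Ensembl identifier and the GENCODE M21 symbol. The set follows the pathway from its cytosolic start to its last steps at the endoplasmic reticulum (ER), with 2 cytosolic enzymes (Hmgcs1 and Fdps) and 6 enzymes of the ER membrane. Of the 8 genes, 7 had enough counts to be tested between groups, and Fdps did not.

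Cells build cholesterol from acetyl-CoA through mevalonate, farnesyl diphosphate, squalene and lanosterol, and lipoprotein cholesterol hardly enters the brain, so neurons and glia depend on synthesis within the tissue. The genes of the pathway are controlled together by SREBP-2, an ER-anchored transcription factor that is held back by INSIG proteins when ER sterol is plentiful and is escorted by SCAP to the Golgi for cleavage when it is scarce. The early enzymes are soluble, whereas the enzymes from squalene synthase onwards are membrane proteins whose mRNAs are translated on ribosomes bound to the ER.

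RPS2, which belongs to the small subunit of the ribosome, was immunoprecipitated with its crosslinked RNA (eCLIP) from wild-type primary cortical neurons of the mouse, and the 2 RPS2 IP libraries were compared with 2 total RNA libraries taken from the samples before the IP. The study prepared its neurons from cortices of late-gestation C57BL/6J embryos and added floxuridine, which limits dividing cells. The age of the eCLIP cultures at lysis was not given in the sources used here, and each replicate number was read as 1 culture that gave both an IP and a total RNA library. Per the labels the IP libraries alone were depleted of rRNA, so any effect of that step cannot be told apart from the IP. The study's methods place depletion after library preparation without naming the libraries.

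The libraries held from 4899718 to 16460545 counts, of which the single non-coding gene Gm42418 took from 15.3% to 42.6%. Same-numbered libraries resembled each other more (Pearson r of log2 CPM across genes 0.975 and 0.974) than libraries of one kind did (0.946 and 0.935). The cultures differed in glial markers, which is described beside the result it touches. Every neuron marker on a list of 8 passed the count filter in these cultures. Levels within a gene are given as CPM, a library's counts brought to a common total after TMM scaling. Levels between genes are given as RPKM, which is CPM divided by the counted exonic length in kilobases.

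On mm10, the cytosolic enzymes lie at chr13:119690379-119708260 (Hmgcs1, plus strand) and chr3:89093588-89101959 (Fdps, minus strand). The ER enzymes lie at chr14:63145150-63179578 (Fdft1, minus), chr15:59315077-59331192 (Sqle, plus), chr10:76531588-76557138 (Lss, plus), chr5:4081145-4104746 (Cyp51, minus), chr8:64718139-64733792 (Msmo1, minus) and chr7:143823145-143848410 (Dhcr7, plus). None sits beside another member, and 0 small nucleolar or Cajal body RNAs lie in their counted exons.

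The members spanned a wide range of levels per length. Hmgcs1, the synthase of an early step on the way to mevalonate, had the highest RPKM in every library, with 33.3 and 121.7 in IP replicates 1 and 2 and 27.4 and 103.6 in total RNA. Dhcr7, a reductase of the final steps, came next with 12.2 and 27.0 RPKM in the IP, and total RNA had 9.23 and 23.0. Replicate 2 was the higher library for both genes and both kinds of RNA.

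Cyp51, the demethylase that acts on lanosterol, had 10.1 and 22.6 RPKM in the IP, and total RNA had 6.61 and 21.3. Sqle, the squalene monooxygenase that adds the first oxygen of the sterol, had 7.75 and 21.9 RPKM in the IP, and total RNA had 7.59 and 18.3. These neighbours lay close, and Cyp51 was above Sqle in 3 of the 4 libraries. Fdft1, squalene synthase, had 5.71 and 15.6 RPKM in the IP, and total RNA had 5.90 and 17.4. Msmo1, a methylsterol monooxygenase that acts after Cyp51, had 4.61 and 16.5 RPKM in the IP, and total RNA had 3.73 and 11.4. Fdft1 was above Msmo1 in 3 of the 4 libraries, and every other neighbouring pair kept its order in 4 of 4.

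Lss, the cyclase that closes the sterol rings to give lanosterol, was low per length, with 1.45 and 2.81 RPKM in the IP, and total RNA had 1.67 and 2.00. Its counted exons add up to 10787 bases, the most of the 8 genes, while its longest coding transcript has 4667, so its RPKM depends on which exons are counted. From Dhcr7 down to Msmo1, neighbours in the order differed by less than their SD over replicates in both groups. In the IP the ends of that run were Dhcr7 at 19.6 ± 10.4 RPKM and Msmo1 at 10.6 ± 8.40 (SD, n = 2). Hmgcs1 had 77.5 ± 62.5 RPKM there and Lss 2.13 ± 0.956, and neither overlapped its neighbour's values in the IP.

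**Figure D1:**
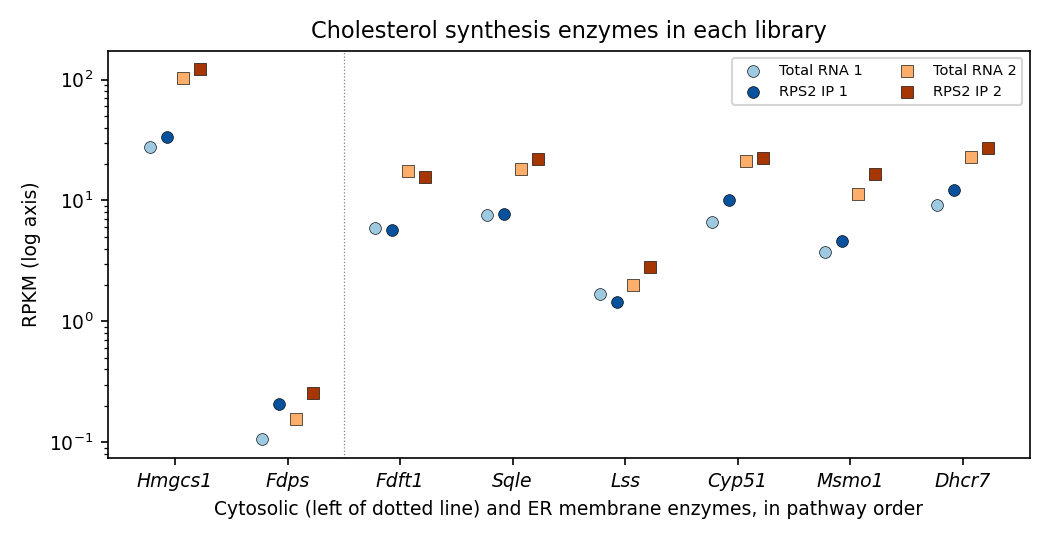
Level of each of the 8 genes in the 4 libraries, as RPKM on a log axis, with 1 point for each library (RPS2 IP and total RNA, replicates 1 and 2). Hmgcs1 is the highest and Fdps the lowest in every library, and both libraries of replicate 2 sit above both of replicate 1 for each of the 7 genes tested.

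Fdps, which joins isoprene units into farnesyl diphosphate, was almost without counts. It had 12 counts in each IP library and 2 and 4 in total RNA, or 0.867 and 1.08 CPM in the IP against 0.445 and 0.658 CPM in total RNA, below the count filter. Idi1, the enzyme just before it, was low too at 1.01 and 4.13 CPM in the IP against 1.11 and 2.96 CPM in total RNA, and was picked after its values were known. Both genes share sequence with processed pseudogenes. For Fdps, 60.1% of the 40-base words of its longest coding transcript also occurred in transcripts of other genes, and 6 processed pseudogenes matched it at 95% identity or more over at least 100 bases. The longest match, to Gm5873, covered 1066 bases at 96.7% identity. In addition, 26.7% of its counted exonic bases overlapped Gm43738 on the same strand. A read that mapped to several places or lay in several genes was not counted, so the Fdps level is uncertain, and the part of this in its low count was not tested. For Fdft1 the share of words was 13.4%, and matches to the pseudogene Gm6781 at 95% identity or more covered 82.7% of a transcript. The share of words was 0.5% for Cyp51 and 0 for the other 5 members. By the looser measure of matches, 33.1% of a Dhcr7 transcript was covered by matches in 25 genes, 9.2% of Hmgcs1 by 15 genes and 7.1% of Msmo1 by 62 genes, and Sqle, Lss and Cyp51 had none.

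The members differed between the replicate numbers, each read here as 1 culture. No source says that these cultures were independent. All 7 genes tested were higher in replicate 2 than in replicate 1 in both the IP and total RNA, which held for 37.4% of the 12336 genes tested. Of the 7, 6 were over 2-fold higher in both kinds of library, against 1.54% of all genes, and the exception was Lss. The median log2 difference of the members was 1.44 in the IP and 1.55 in total RNA, where that of all genes was −0.002 and −0.014. With 1 culture for each number there is no replicate of this difference and no test of it. The intervals below cover counting error only.

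Hmgcs1 went from 153 to 559 CPM in the IP and from 126 to 476 CPM in total RNA, which is 3.65-fold and 3.77-fold. The log2 differences were 1.87 (exact 95% interval 1.80 to 1.94) and 1.92 (1.79 to 2.05). For this first enzyme of the set the IP and total RNA libraries gave overlapping intervals. Msmo1 went from 28.3 to 101 CPM in the IP and from 22.9 to 70.0 CPM in total RNA, or 3.58-fold and 3.05-fold. Sqle went from 43.0 to 122 CPM in the IP and from 42.1 to 102 CPM in total RNA, or 2.83-fold and 2.41-fold. Fdft1, the enzyme that commits farnesyl diphosphate to sterols, followed the same direction. It went from 24.1 to 65.9 CPM in the IP and from 24.9 to 73.5 CPM in total RNA, or 2.73-fold and 2.95-fold.

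Cyp51 went from 44.6 to 99.8 CPM in the IP and from 29.2 to 94.0 CPM in total RNA, or 2.24-fold and 3.22-fold. Its intervals did not overlap between the kinds of library, at log2 1.16 (1.02 to 1.31) in the IP and 1.69 (1.41 to 1.97) in total RNA. Dhcr7 went from 71.1 to 157 CPM in the IP and from 53.7 to 134.0 CPM in total RNA, or 2.20-fold and 2.5-fold. Lss differed least. It went from 15.7 to 30.3 CPM in the IP and from 18 to 21.5 CPM in total RNA, or 1.93-fold and 1.19-fold, and the interval of the total RNA value included 0 (log2 −0.15 to 0.67). Except for Lss, each gene was past at least 97.5% of all genes tested in this difference in both kinds of library. Lss was past 96.5% in the IP and 68.1% in total RNA.

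**Figure D2:**
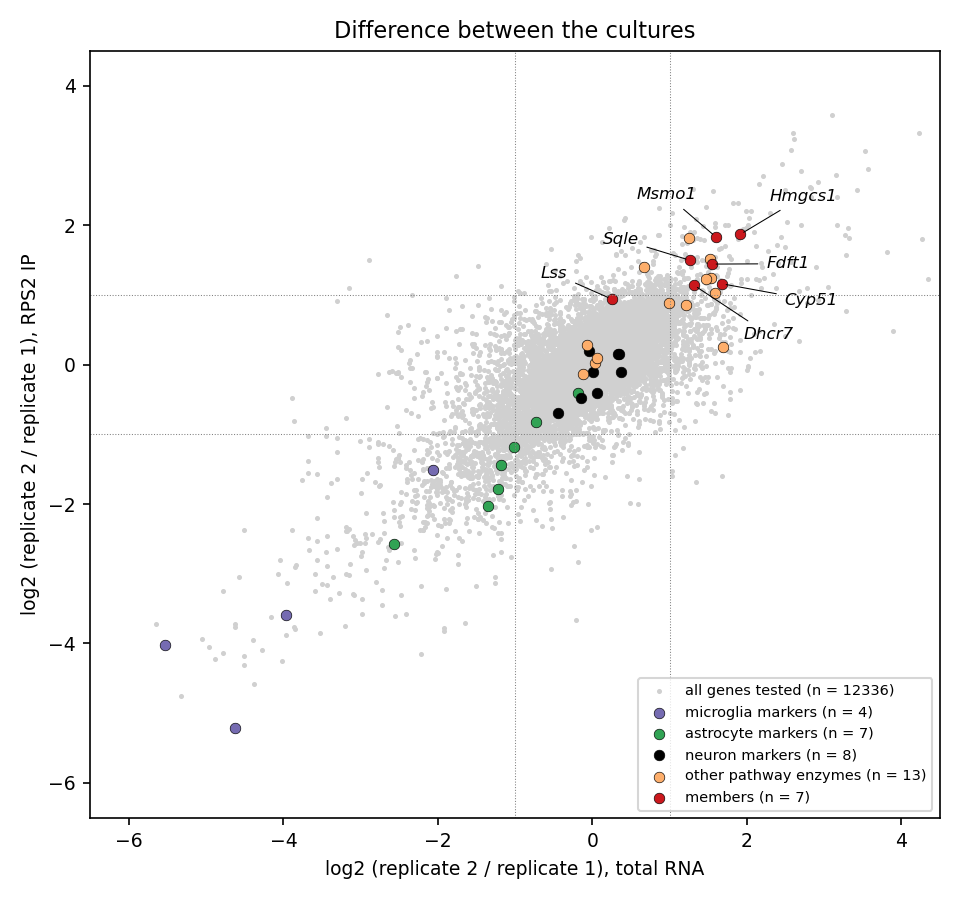
Difference between the replicate numbers, each read as 1 culture, for each of the 12336 genes tested. Values are log2 of replicate 2 over replicate 1 in total RNA (x axis) and in the RPS2 IP (y axis), with dotted lines at a 2-fold difference. Of the 7 members (red, named), 6 lie beyond 2-fold higher on both axes, the 4 microglia markers (purple) and 5 of 7 astrocyte markers (green) lie beyond 2-fold lower on both, and the 8 neuron markers (black) lie between −0.70 and 0.37.

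The difference ran through much of the rest of the pathway. Of 13 further enzymes on a pathway list, all tested, 11 were higher in replicate 2 in both kinds of library and 5 were over 2-fold higher in both, namely Idi1, Pmvk, Mvd, Nsdhl and Hsd17b7. Their medians were 0.88 in the IP and 1.22 in total RNA on the log2 scale. Among the genes of the list that stood near 0 were Ebp (0.02 and 0.04), a sterol isomerase, and Tm7sf2 (−0.14 and −0.12), a sterol reductase that shares 51.6% of its counted bases with neighbours on the same strand. These genes, and those of the next paragraph, were picked out after their values were seen.

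Genes of cholesterol handling outside the pathway did not share one direction. On a list of uptake, transport and removal genes, Stard4, a sterol carrier, was over 2-fold higher in replicate 2 in both kinds of library, with log2 differences of 1.81 in the IP and 1.89 in total RNA. On a list of 7 SREBP control genes 1 was, Insig1, with 1.24 and 1.23. Stard4 and Insig1 are textbook targets of SREBP-2. Abca1, which exports cholesterol, was lower in replicate 2, with differences of −1.04 and −0.997. Abcg1, of the uptake, transport and removal list, had −0.22 in the IP and 0.07 in total RNA. Srebf1 was lower in replicate 2, with −0.78 and −0.69, and Srebf2, the gene of SREBP-2 itself, differed by 0.29 and 0.37. Activity of SREBP-2 was not tested. The receptor and escort genes Lrp1 (−0.97 and −0.79) and Scap (−0.76 and −0.86) were lower in replicate 2 as well.

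Markers of other cells moved between the same cultures. All 7 astrocyte markers tested, of 8 listed, were lower in replicate 2 in both kinds of library, and 5 were over 2-fold lower, against 5.46% of all genes. Their summed level was 3625 and 1556 CPM in IP replicates 1 and 2 and 2961 and 1412 CPM in total RNA. Gfap, an intermediate filament of astrocytes, went from 725 to 121 CPM in the IP and from 678 to 114 CPM in total RNA. All 4 microglia markers tested, of 7 listed, were over 2-fold lower, and their list summed to 85.1 and 7.28 CPM in the IP and 90.0 and 5.92 CPM in total RNA, with Cx3cr1 at 0 counts in total RNA replicate 2 and Aif1, Tmem119 and P2ry12 at 0 in both libraries of that culture. The vascular and fibroblast list summed to 32.4 and 7.72 CPM in the IP and 34.7 and 11.3 CPM in total RNA, with Cldn5 at 0 in all libraries. The oligodendrocyte lineage list summed to 89.6 and 70.2 CPM in the IP and 82.8 and 66.4 CPM in total RNA, with Mog at 0 in 3 libraries. Of its 5 genes tested, 4 were lower in replicate 2 in both kinds of library, and 1 was over 2-fold lower in both. The 8 neuron markers summed to between 4025 and 4420 CPM. In bulk RNA, fewer cells of a type and less RNA per cell cannot be told apart, and the part of cell makeup in the difference of the cholesterol genes was not tested.

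The promoters of the members were also read for motifs of the factors known to act there. Any part of these motifs in the difference between the cultures was not tested. RefSeq promoters (GRCm38.p6, from 250 bases before to 50 after the start) were given for 5 of the 8 genes, Hmgcs1, Lss, Cyp51, Msmo1 and Dhcr7. The motif TCACNCCAC, the classical sterol regulatory element of SREBP, was searched on both strands and matched 1 of the 5, Hmgcs1, which was also the 1 match among the 16 pathway genes with a promoter, against 1.44% of all genes with a promoter. The match is shown first below. Only exact matches were searched for, and Insig1, named above as a textbook target, had none in its promoter. A missing match therefore does not show that a gene lacks a sterol element. CCAAT, the box bound by NF-Y, a partner of SREBP, was found on either strand in 5 of 5 members and in 15 of 16 pathway genes with a promoter, against 41.1% of all genes. GGGCGG, the GC box of Sp1, was found in 5 of 5 members and 15 of 16 pathway genes, against 38.2%. These shares are over all genes with a promoter, whether or not they were counted here. The boxes were not particular to genes higher in replicate 2. Npc2 and Cyp46a1, lower in replicate 2 and picked after their values were seen, held both boxes, and Abca1, also lower, held only the GC box. These matches are descriptions of letters, and no binding was measured. Each line below is written 5′ to 3′ on the gene's strand with the motif in capitals, and ATTGG is CCAAT read on the opposite strand.
Hmgcs1, sterol element, chr13:119690204-119690233, plus strand: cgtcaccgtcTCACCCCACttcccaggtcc
Hmgcs1, CCAAT box, chr13:119690351-119690380, plus strand: gagtcccgggATTGGcagaggtagccgctg
Lss, CCAAT box, chr10:76531533-76531562, plus strand: tgatgctctgATTGGccgagctcgcatcgg
Cyp51, CCAAT box, chr5:4104707-4104736, minus strand: ctgtccgccaCCAATctggtcctgagatcc
Msmo1, CCAAT box, chr8:64733614-64733643, minus strand: gtggggcggaCCAATtacgacaggcgagcc
Dhcr7, CCAAT box, chr7:143830155-143830184, plus strand: tccacttccgATTGGtcgtctgtgacctca

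The sterol element of Hmgcs1 began 137 bases before the RefSeq start. The CCAAT box shown for each gene is the match nearest the start. The promoter shown held 4 such matches in Hmgcs1, 3 in Msmo1, 2 in Dhcr7 and 1 each in Lss and Cyp51. The CCAAT boxes shown began 62 bases before the start in Lss, 29 in Cyp51, 55 in Msmo1 and 49 in Dhcr7, and 10 bases after it in Hmgcs1. For Dhcr7 the box lay in 1 of 3 listed promoters. Lss, which differed least between the cultures, held the CCAAT and GC boxes like the other 4 genes.

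The second question was whether the mRNAs of these enzymes were recovered with the ribosome beyond their level in total RNA, and whether ER membrane enzymes differed in this from cytosolic ones. Within the pairs, 5 of the 7 genes had more signal in the IP than in total RNA in both cultures, against 34.3% of all genes, and only Fdft1 had less in both. The differences were small, and their median log2 ratio was 0.28 in pair 1 and 0.23 in pair 2, where that of all genes was 0.012 and 0.0075.

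Msmo1 had log2 ratios of IP over total RNA of 0.31 in pair 1 (exact 95% counting interval −0.01 to 0.63) and 0.53 in pair 2 (0.37 to 0.70). Dhcr7 had 0.41 (0.20 to 0.62) and 0.23 (0.11 to 0.35). Hmgcs1 had 0.28 (0.15 to 0.42) and 0.23 (0.17 to 0.30). For these genes the counting intervals of the pairs overlapped. Sqle had 0.03 (−0.21 to 0.28) and 0.26 (0.12 to 0.40), and Fdft1 had −0.05 (−0.36 to 0.28) and −0.16 (−0.33 to 0.02). Both intervals of Fdft1 included 0. For Cyp51 and Lss, neighbours in the pathway, the counting intervals did not overlap between the pairs. Cyp51 had 0.61 (0.34 to 0.90) in pair 1 and 0.09 (−0.06 to 0.23) in pair 2. Lss had −0.20 (−0.58 to 0.19) in pair 1 and 0.49 (0.20 to 0.79) in pair 2. For Fdps the counts allowed from −1.21 to 4.16 in pair 1 and from −1.01 to 2.80 in pair 2, so a difference was not detectable at this depth.

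**Figure D3:**
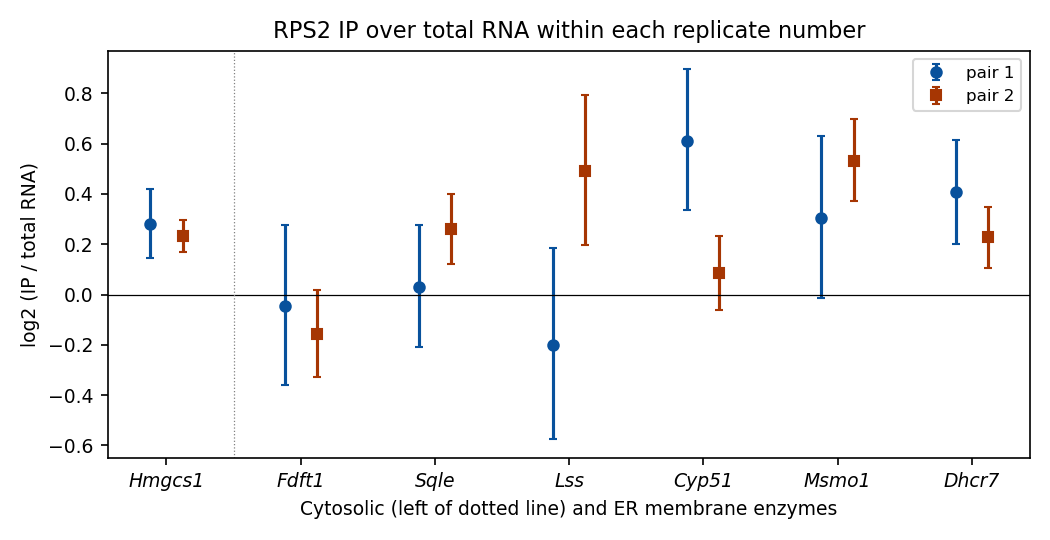
Ratio of RPS2 IP to total RNA for the 7 members tested, as log2 with 1 point for each pair of same-numbered libraries and exact 95% counting intervals as bars, and with a dotted line between cytosolic Hmgcs1 and the 6 ER membrane enzymes. Hmgcs1, Sqle, Cyp51, Msmo1 and Dhcr7 have both points above 0, and the intervals of Lss and of Cyp51 do not overlap between the pairs.

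In the unpaired fit, edgeR's quasi-likelihood test called 0 of the 7 members and 0.0% of all genes in either direction (Benjamini-Hochberg adjusted p under 0.05). The unadjusted p was under 0.05 for 0 members and 349 genes, and DESeq2 called 0 members and 5 genes. The members' log2 fold changes ran from −0.14 ± 0.66 (SE) for Fdft1 to 0.47 ± 0.75 for Msmo1, with an edgeR adjusted p of 1 for each. These standard errors include the spread between the cultures. Leaving out any library of that fit broke up a pair, and each of the 7 fold changes took both signs over the 4 such fits.

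With the replicate number as a block, so that IP was set against total RNA within each culture, edgeR called 2 of the 7 members higher and 0 lower, against 6.63% of all genes higher and 7.55% lower. Msmo1 was called at a log2 fold change of 0.45 ± 0.12 (SE) with an edgeR adjusted p of 0.00472. Dhcr7 was called at 0.31 ± 0.11 with an edgeR adjusted p of 0.0401. The SE and p of this fit rest on a dispersion trend over genes, not on each gene's own spread between the pairs. Neither call held in every blocked fit. Msmo1 was called in 4 of 7 such fits, with adjusted p from 0.00245 to 0.175, and Dhcr7 in 3 of 7, with adjusted p from 0.0236 to 0.362. Cyp51 at 0.30 ± 0.12 had an edgeR adjusted p of 0.0732 and Hmgcs1 at 0.25 ± 0.10 one of 0.0691. Both passed when genes were required to have at least 10 counts in every library. With an offset for GC content and length, Hmgcs1 was at 0.05 (edgeR adjusted p = 0.852) and Cyp51 at 0.13 (edgeR adjusted p = 0.594). Sqle at 0.16 ± 0.11, Lss at 0.19 ± 0.17 and Fdft1 at −0.11 ± 0.13 had edgeR adjusted p of 0.384, 0.515 and 0.623.

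The number of members called moved with the scaling and the tool. With the block it was 0 after scaling by library totals only and 0 with DESeq2, 1 with an offset for GC content and length (Dhcr7), 1 with limma-voom (Msmo1), and 4 with the minimum of 10 counts. The genes called over the whole table moved too, from 818 higher and 931 lower of 12336 tested in the blocked edgeR fit. They were 283 and 878 with totals only, 457 and 381 with the offset, and 685 and 927 with limma-voom, each of 12336. With the minimum of 10 counts they were 878 and 926 of 10885. With DESeq2 they were 158 and 382 of the 4683 genes given an adjusted p.

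The medians of ER membrane and cytosolic enzymes lay close to each other in the blocked fit. Among the members the comparison set 6 ER genes against Hmgcs1 alone, since Fdps was not tested. The median of the ER genes was 0.24 with the block and Hmgcs1 was at 0.25, a difference of −0.01. It was −0.11 in pair 1 and 0.01 in pair 2. Over the whole pathway list, with 14 ER and 6 cytosolic genes tested, the blocked fit gave a difference of the medians of 0.02, pair 1 gave 0.28 and pair 2 gave −0.13, so the pairs had opposite signs. It was 0.12 with the block and the GC and length offset. Cytosolic genes ran from −0.64 to 0.71 with the block and ER genes from −0.17 to 0.64. Fdft1, Acat2 and Idi1 had over 10% of their 40-base words in other genes, and Tm7sf2 had over 50% of its counted bases in same-strand neighbours. Without these tested genes, 12 ER genes and 4 cytosolic genes were left, and the difference was 0.24 in the blocked fit, with 0.36 from pair 1 and 0.18 from pair 2. That subset was formed with the values known, and genes are not replicates, so no test was made.

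Among the 13 further pathway enzymes, the blocked edgeR fit called 3 higher and 1 lower, against 6.63% and 7.55% of all genes. The unpaired edgeR fit called 0 of them and 0.0% of all genes. Acat2, the thiolase of the first step, was the highest at 0.71 ± 0.19 (edgeR adjusted p = 0.00310), and 48.0% of its 40-base words occurred in other genes. Pmvk, phosphomevalonate kinase, was at 0.66 ± 0.16 (edgeR adjusted p = 8.5e-04), and Sc5d, a late sterol desaturase, at 0.64 ± 0.16 (edgeR adjusted p = 0.00198). Mvk, the mevalonate kinase that acts just before Pmvk, was the lowest at −0.64 ± 0.21 (edgeR adjusted p = 0.0215), with 9.83 and 11.9 CPM in the IP against 17.4 and 16.6 CPM in total RNA. The kinases of successive steps thus lay on opposite sides in both pairs. DESeq2 gave none of these genes an adjusted p. Over the other 6 blocked fits Pmvk was called in 6 and the other 3 genes in 5 each. With the GC and length offset the adjusted p was 0.0085 for Pmvk, 0.0577 for Acat2, 0.0740 for Sc5d and 0.0704 for Mvk. The lowest ER gene was Lbr, a sterol reductase of the nuclear envelope, at −0.17 ± 0.34.

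**Figure D4:**
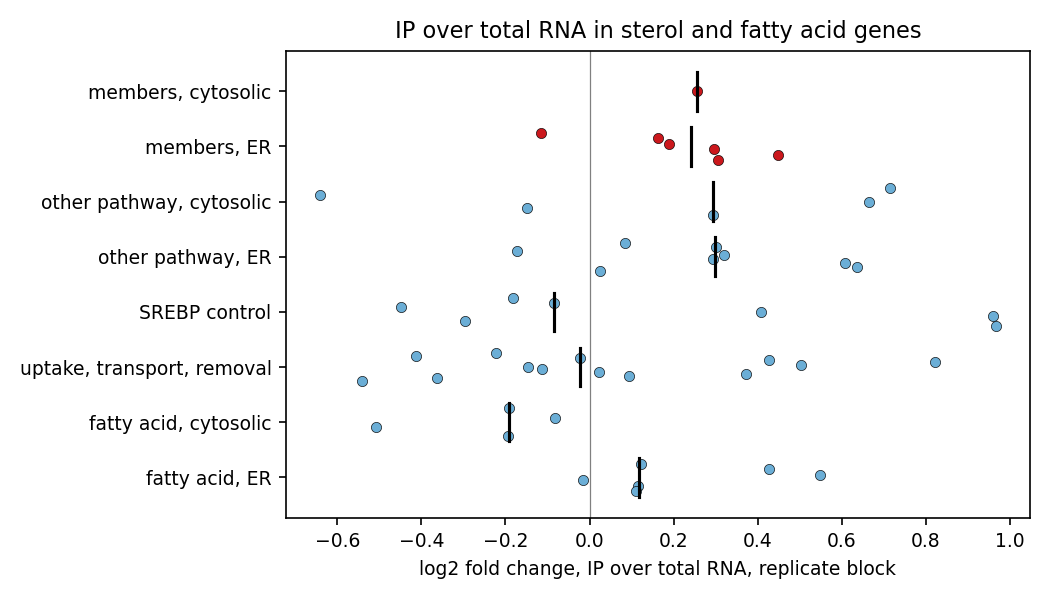
Log2 ratio of RPS2 IP to total RNA from the edgeR fit with the replicate block for each gene tested on the lists of cholesterol and fatty acid genes, with 1 point for each gene and the median of each list as a line. The members lie between −0.11 and 0.45, and the other cholesterol pathway genes between −0.64 and 0.71.

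Genes that govern the pathway varied in the ratio. Of the 7 SREBP control genes tested, the blocked edgeR fit called 3 higher and 1 lower, against 6.63% and 7.55% of all genes. The ER retention factors Insig1 and Insig2 were at 0.41 ± 0.14 and 0.96 ± 0.23 (edgeR adjusted p = 0.0380 and 9.6e-04), and the site-2 protease gene Mbtps2 was the highest at 0.97 ± 0.25 (edgeR adjusted p = 0.00166). Scap was the lowest at −0.45 ± 0.10 (edgeR adjusted p = 4.6e-04). Insig1 was called in 3 of 7 blocked fits and Scap in 6 of 7. Insig2 and Mbtps2 were called in all 6 blocked fits that gave them an adjusted p. Their total RNA counts were low, at 32 and 53 for Insig2 and 39 and 34 for Mbtps2, and their pairs differed. The log2 ratios of pairs 1 and 2 were 0.48 and 1.27 for Insig2 and 0.48 and 1.41 for Mbtps2. Of 13 uptake, transport and removal genes tested, 3 were called higher, the carriers Stard4 (0.82 ± 0.19) and Npc2 (0.43 ± 0.12) and the esterifying enzyme Soat1 (0.37 ± 0.13), and Lrp1 was called lower (−0.41 ± 0.11). With the GC and length offset these calls were lost for Lrp1 (−0.04, edgeR adjusted p = 0.892), Scap (−0.27, 0.106), Soat1 (0.32, 0.109) and Insig1 (0.18, 0.535). The lowest gene of that list, Nr1h3, had 1 count in total RNA replicate 2 and a log2 fold change of −0.54 ± 0.66.

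The genes whose profile over the 4 libraries lay nearest to the mean profile of the members were sought among genes with a mean of at least 10 CPM. The measure was the Euclidean distance in log2 CPM centred over the libraries. They were Bdnf, a neurotrophin, at 0.129, Hbegf, a growth factor of the EGF family, at 0.164, Pgk1, a glycolytic kinase, at 0.185, Hsd17b7 of the pathway itself at 0.186, and Fbln5, a matrix protein, at 0.214. With 4 libraries from 2 cultures the profiles mostly express the difference between the cultures.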

How the data were processed

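The deposited files hold raw counts per gene and each gene's exonic length. Per the file headers, the authors counted with featureCounts 1.5.3 in stranded mode (option 1) on the mm10 annotation of Cell Ranger 3.0.0, without counting multi-mapped or multi-gene reads. Adapters had been trimmed with cutadapt and reads aligned to mm10 with STAR. Removal of PCR duplicates is not described. The intervals cover counting error only and treat each count as independent, so they would be too narrow if duplicates were kept. All rows named a gene, and 31011 of 31053 identifiers had a GENCODE M21 symbol.

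Counts were fitted in R 4.3.3 with edgeR 4.0.16 (filterByExpr, TMM, quasi-likelihood test, two-sided) and p-values were adjusted by Benjamini-Hochberg over all 12336 genes kept, with a threshold of 0.05. RPKM used the listed exonic lengths. Medians and ratios over many genes used log2 CPM with a prior count of 2, and member ratios with intervals used the counts themselves with an exact 95% binomial interval. Library totals were 16460545 and 9941486 (IP) and 5281196 and 4899718 (total RNA). No source says that the replicates were independent cultures, so p-values cover these samples only. In the blocked edgeR fit they do not measure a gene's own spread, as described below. Alternatives used DESeq2 1.42.0 and limma 3.58.1 (voom), other scalings and filters, and each library left out.

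Total RNA was taken from the IP samples before the pulldown, per the study's methods, and the deviations of same-numbered libraries from their group means had a Pearson r of 0.733 across genes. The replicate number was therefore taken to pair the libraries. The blocked fit has 1 residual degree of freedom per gene and an infinite estimated prior. Its standard errors and p-values therefore rest on the dispersion trend over genes, not on each gene's own spread between the pairs. Cyp51, with log2 ratios of 0.61 and 0.09 in the pairs, had a standard error of 0.12 there. Tested on simulated data of the IP against total RNA comparison (12186 genes), the unpaired fit recovered 0 of 63 genes changed 4-fold, and the blocked fit recovered 61 of 63 at 4-fold, 57 of 67 at 2-fold and 31 of 65 at 1.5-fold. Of the 166 genes it called there, 17 were false calls, more than the threshold allows for.

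The members, gene lists and tests were chosen with earlier results of these data known. The genes named are all members, the highest, the lowest and every called gene of each list of cholesterol and fatty acid genes, marker genes with their lists, and the 5 nearest profiles among genes of at least 10 CPM. Others are said to be picked after their values were seen. Sequences shown are from RefSeq (GRCm38.p6). Values of some single genes are left out here.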

Additional observations from a re-analysis of the deposited data

How the results depend on the processing

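Without the block, 0 genes were called higher and 0 lower by edgeR, with 349 at an unadjusted p under 0.05. Lower genes numbered 14 with no low-count filter and 5 with DESeq2, and with 1 library left out they numbered 1 to 8, with 0 higher and 0 members called in each of those 4 fits. In them the lone library of one group faced both libraries of the other, and it was assumed to vary like them. The members' log2 fold changes in them ran from −0.98 to 1.499 for Hmgcs1, −1.04 to 0.85 for Fdft1, −0.75 to 0.97 for Sqle, −0.34 to 0.61 for Lss, −0.48 to 1.31 for Cyp51, −0.73 to 1.497 for Msmo1 and −0.41 to 1.09 for Dhcr7. The ER minus cytosolic difference of the members, −0.025 in the unpaired fit, ran from −0.34 to 0.38, and that of the whole pathway list, also −0.025, from −0.28 to 0.48.

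The replicate block gave 818 genes higher, 931 lower and 2 members called. Combined with another change it gave 283 higher and 878 lower with library size only, 769 and 699 with no low-count filter (1 member), 878 and 926 with at least 10 counts in every library (4 members), and 158 and 382 with DESeq2, which gave an adjusted p for 4683 genes. It gave 685 and 927 with limma-voom (1 member), and 457 and 381 with the GC and length offset (1 member). The ER minus cytosolic difference of the members was −0.29 with no filter and −0.28 with the block and no filter, where Fdps enters, and 0.16 with the block and the GC and length offset.

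Scaling the difference between the cultures by library totals alone, chosen after seeing the data, raised the median of all genes to 0.40 in the IP and 0.52 in total RNA and that of the members to 1.85 and 2.09, or 1.45 and 1.57 relative to all genes. The same scaling put 7.29% of all genes over 2-fold. In each of the 4 scalings tried, 6 of the 7 members were over 2-fold higher in replicate 2.

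Depth limits Fdps most, and then Lss, with 81 and 131 counts in total RNA. With 2 cultures, no value here carries a replicate check of the culture difference.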

Other observations

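Fatty acid synthesis shares acetyl-CoA and SREBP control with the cholesterol pathway, and its genes were listed in the same way by place. All 10 listed genes were tested. The 4 cytosolic genes (Acly, Acaca, Fasn and Acss2) had a median log2 ratio of IP to total RNA of −0.19 with the replicate block, and the 6 ER membrane genes (Scd1, Scd2, Elovl5, Elovl6, Fads1 and Fads2) had 0.12. The difference of 0.31 was 0.40 in pair 1 and 0.34 in pair 2, and it was 0.21 with the GC and length offset. Fasn, the fatty acid synthase, was called lower at −0.51 ± 0.10 (SE, edgeR adjusted p = 3.3e-05), with 760 and 999 CPM in the IP against 1057 and 1452 CPM in total RNA, but it was at −0.18 with that offset, with an adjusted p of 0.368. Elovl5, an elongase, was called higher at 0.55 ± 0.11 (edgeR adjusted p = 2.4e-05) and in all 7 blocked fits, and Scd2, a desaturase, at 0.43 ± 0.10 (edgeR adjusted p = 6.7e-04) and in 6 of the 7. The highest cytosolic gene was Acaca at −0.08 and the lowest ER gene Elovl6 at −0.02, but with the GC and length offset the lists overlapped, with the highest cytosolic gene at −0.007 and the lowest ER gene at −0.11. No test of the difference between the lists was made, since genes are not replicates.

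Between the cultures the fatty acid genes did not move as the cholesterol genes did. The log2 difference of replicate 2 over replicate 1 had a median of 0.21 in the IP and 0.30 in total RNA for the cytosolic genes and of −0.11 and 0.06 for the ER genes, and 0 of the 10 was over 2-fold higher in both kinds of library. The difference between these lists and the cholesterol enzymes was not tested.

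In the blocked edgeR fit the marker lists gave 1 neuron marker called, Nefm at −0.40 ± 0.10, and 2 astrocyte markers, Aqp4 at 0.49 ± 0.12 and Slc1a3 at 0.34 ± 0.10, with 0 called among the oligodendrocyte, microglia and vascular markers tested. Over all genes that fit called 6.63% higher and 7.55% lower. Nefm was called in 6 of 7 blocked fits, Aqp4 in 5 and Slc1a3 in 4. With the GC and length offset Nefm was at −0.25 (edgeR adjusted p = 0.119) and Slc1a3 at 0.29 (edgeR adjusted p = 0.0678), and with DESeq2 the adjusted p was 0.130 for Aqp4.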
